A study of Danio rerio with 8 samples.

Results

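The genes klf2a, klf2b and s1pr1 were examined in the larval zebrafish heart after exposure to sorafenib. Probes were taken where the RefSeq accession printed on the array maps to one of these 3 symbols, which gave 4 probes, 1 for klf2a, 2 for klf2b and 1 for s1pr1, among 43603 probes in all. All 4 were well above background on all 8 arrays, so the 3 genes stand among 21519 units tested, which are 8904 named genes and 12615 unnamed probes. The genes were selected on their log2 fold changes between sorafenib and control hearts and on their signal in these same arrays. Their differences between groups are therefore given as a description and carry no test.

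In the group labelled sorafenib, zebrafish larvae were kept in 1 uM sorafenib from 72 to 96 hours post-fertilization. In the group labelled control, larvae were kept in the vehicle over the same hours, and hearts of both groups were taken at 4 days post-fertilization. Each group has 4 arrays, which are described as separate experiments, and every array was hybridised with Cy3-labelled RNA of the heart in 1 colour. Sorafenib is a kinase inhibitor used against cancer that blocks RAF kinases and several receptor tyrosine kinases, the VEGF receptors among them. The labels and series text give neither the strain, the number of hearts behind an array nor the way hearts were dissected.

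Klf2 is a zinc finger transcription factor of the Krüppel-like family that is switched on in endothelial and endocardial cells by the drag of flowing blood. In zebrafish it has the paralogs klf2a and klf2b, and klf2a in the endocardium of the atrioventricular canal depends on blood flow and takes part in valve formation. S1pr1 is a G protein-coupled receptor for sphingosine-1-phosphate, a lipid carried in blood, and it restrains sprouting and steadies the junctions between endothelial cells. None of the 3 genes is limited to endothelium: klf2b is also known from zebrafish epidermis, KLF2 and S1PR1 from mammalian lymphocytes, and S1PR1 from mammalian astrocytes.

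Levels are the log2 processed signal of a probe minus the log2 of the 75th percentile of its array, which ranged from 85.1 to 154.6 in signal. Between 55.0% and 59.5% of the spots of an array were well above background and 0 were saturated. The 4 sorafenib arrays and 4 control arrays lay on 2 slides, with replicates 1 and 2 of both groups on slide 1 and replicates 3 and 4 on slide 2. On each slide the control arrays took positions 1 and 3 and the sorafenib arrays the positions beside them, so position and group cannot be told apart. Sorafenib replicates 2 and 3 stood apart in markers of other tissues. Their mean neural marker level, relative to all arrays, was -0.73 and -0.92, against 0.18 and 0.34 in sorafenib replicates 1 and 4 and 0.02 to 0.40 in controls. Results are therefore also given without this pair of arrays. Of the heart muscle genes, myl7, which encodes a myosin light chain of both chambers, stood at 4.90 to 6.13 in sorafenib hearts and 4.89 to 5.66 in control hearts. The endothelial genes cdh5 and kdrl had probes that did not pass the filter on dim probes. The endothelium is thus represented here by 30 other markers.

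The klf2a transcript averaged slightly higher in sorafenib hearts, klf2b showed hardly any difference and s1pr1 averaged slightly lower. The log2 fold changes, sorafenib minus control, were +0.36 ± 0.20 for klf2a, -0.07 ± 0.17 for klf2b and -0.22 ± 0.25 for s1pr1 (standard error in limma, n = 4 arrays per group). Of the 3 genes, 0 passed limma with Benjamini-Hochberg adjustment at 0.05, where 0% of all units did, and 1606 units (7.46%) had an unadjusted p under the same threshold. In 0 of the 3 did the groups separate without overlap, against 4.19% of all units, 2.28% with every sorafenib array above and 1.91% with every sorafenib array below the control arrays. The rule that chose the genes used the same contrast, so nothing is read from these counts. Of the 3 log2 fold changes 1 was positive and 2 were negative. With normexp, a model-based background correction, the values were -0.32 for klf2a, -0.68 for klf2b and -0.93 for s1pr1. They were 0.35, -0.07 and -0.28 after normexp with outlying local backgrounds replaced, and values given as "after normexp" come from that setting.

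The level of klf2a was 3.81, 3.69, 4.04 and 3.64 in sorafenib replicates 1 to 4. It was 3.58, 3.64, 2.98 and 3.53 in control replicates 1 to 4. The groups overlapped narrowly, with the lowest sorafenib array at 3.636 and the highest control array at 3.641. Control replicate 3 lay far under the other controls. The means were 3.79 ± 0.18 in sorafenib hearts and 3.43 ± 0.30 in control hearts (SD, n = 4 each), a 1.28-fold difference. The processed signal averaged 1504 ± 336 in sorafenib hearts and 1252 ± 63.9 in control hearts. The probe stood between the 92.5th and 95.8th percentile of all probes on its array. The size of its log2 fold change exceeded that of 71.8% of all units. The difference was +0.21 without control replicate 3, +0.28 without sorafenib replicate 3 and +0.29 without sorafenib replicates 2 and 3. Each of these settings keeps 1 of the replicates 3, which are the highest sorafenib and the lowest control array. On slide 1, which holds neither of them, the difference was +0.14.

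Of the klf2b probes, the brighter stood for the gene. Its level was 3.45, 3.34, 2.94 and 3.21 in sorafenib replicates 1 to 4. In control replicates 1 to 4 it was 3.23, 3.37, 3.30 and 3.32. The control arrays lay close together and the sorafenib arrays spread to both sides of them, with replicate 3 the lowest. The means were 3.24 ± 0.22 in sorafenib hearts and 3.31 ± 0.06 in control hearts (SD, n = 4 each). The fold change exceeded that of 17.9% of all units in size, and without sorafenib replicate 3 it turned to +0.03. The residual spread of this brighter probe was also small, at 0.16 against a median of 0.35 over all units, which does not hold for the other probe below.

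The other klf2b probe read 2.18, 2.91, 3.57 and 2.21 in sorafenib replicates 1 to 4. It read 2.92, 3.05, 2.91 and 1.94 in control replicates 1 to 4. Its means were 2.72 ± 0.66 in sorafenib hearts and 2.70 ± 0.52 in control hearts (SD, n = 4 each), a log2 fold change of +0.01 ± 0.36 (SE). Both probes thus gave a mean difference near 0, but they did not follow each other from array to array, with a Pearson r of -0.59 over 8 arrays. Sorafenib replicate 3 was the lowest of its group on the brighter probe and the highest on the other. The fold changes of the pair differed by 0.08, where the median gap between the probes of a gene was 0.15 over 2892 genes with several probes tested. Whether each probe tells klf2b from klf2a was not tested, since the probe sequences were not used here.

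The level of s1pr1 was 4.76, 4.09, 3.94 and 4.52 in sorafenib replicates 1 to 4. In control replicates 1 to 4 it was 4.96, 4.11, 4.57 and 4.54. The groups overlapped, and the lower values were sorafenib replicates 2 and 3 and control replicate 2. The means were 4.33 ± 0.38 in sorafenib hearts and 4.54 ± 0.35 in control hearts (SD, n = 4 each), a 0.861-fold ratio. The probe was among the brightest on the array, between the 95.5th and 97.8th percentile. The size of its log2 fold change exceeded that of 50.9% of all units. At each replicate number the sorafenib array stood under the control array, by little in replicates 2 and 4, though the numbers were not taken as pairs. The size of the log2 fold change depended on single arrays, while its direction held without any single one. It was -0.08 without control replicate 1, -0.09 without sorafenib replicate 3 and -0.14 without sorafenib replicate 2, whereas it was -0.36 without control replicate 2 and also -0.36 without sorafenib replicate 1. Without sorafenib replicates 2 and 3 together the direction turned, to +0.10 ± 0.27 (SE).

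**Figure D1:**
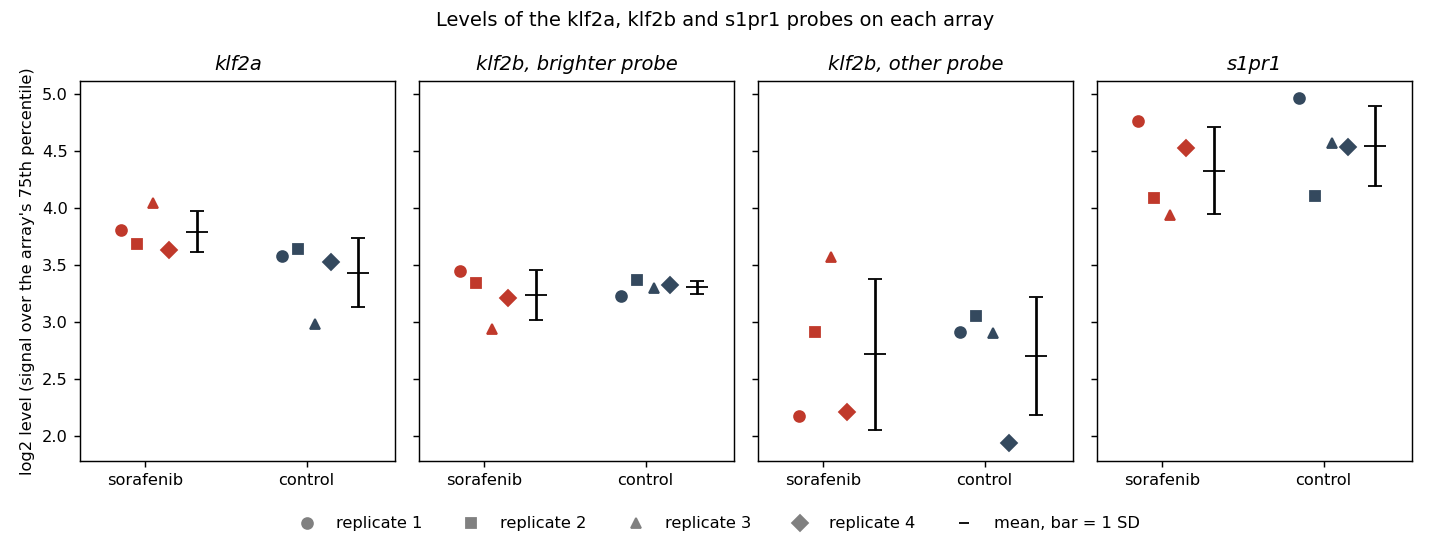
Log2 level (signal over the 75th percentile of the array) of the klf2a probe, both klf2b probes and the s1pr1 probe on each array, sorafenib left and control right in each panel, with a marker shape per replicate and the group mean with 1 SD beside the points. The groups overlap on every probe, narrowly for klf2a, from 3.636 to 3.641.

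The slides gave different values. The log2 fold change of klf2a was +0.14 on slide 1 and +0.58 on slide 2, which holds control replicate 3. That of the brighter klf2b probe was +0.10 on slide 1 and -0.24 on slide 2, so its direction differed between slides. That of s1pr1 was -0.11 on slide 1 and -0.32 on slide 2. The other klf2b probe leaned the opposite way to the brighter one on each slide. On slide 1 it read 2.18 and 2.91 in sorafenib hearts and 2.92 and 3.05 in control hearts. On slide 2 it read 3.57 and 2.21 in sorafenib hearts and 2.91 and 1.94 in control hearts. With the slide as a block in the fit all 3 estimates were the same as without it, at +0.36, -0.07 and -0.22.

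The 3 transcripts followed different orders across the arrays. Pearson's r over the 8 arrays was taken with the brighter klf2b probe, as a description of arrays that share slides and treatment. It was -0.38 between klf2a and klf2b, -0.39 between klf2a and s1pr1 and 0.39 between klf2b and s1pr1. The klf2b probes did not follow each other, so the values with klf2b are read for the brighter probe only. The paralogs were set against each other on each array, which removes the scaling of the array. With the brighter klf2b probe, the level of klf2a minus that of klf2b was 0.36, 0.34, 1.102 and 0.42 in sorafenib replicates 1 to 4. It was 0.35, 0.28, -0.32 and 0.21 in control replicates 1 to 4. Only the change of this value between arrays can be read, since probes differ in brightness per transcript. The group means differed by 0.43, or by 0.39 with the mean of the klf2b probes. With the brighter probe both replicates 3 lie at the ends of this range, and the difference was 0.040 on slide 1 and 0.82 on slide 2. It was 0.25 without sorafenib replicate 3, 0.28 without control replicate 3 and 0.26 without sorafenib replicates 2 and 3, settings that each keep 1 of the replicates 3. These values by array and slide are read for the brighter klf2b probe only. On the other klf2b probe sorafenib replicate 3 read 3.57, the highest of its group, where the brighter probe read 2.94.

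The endothelial markers lay mostly on the negative side, whereas klf2a was positive and klf2b and s1pr1 lay nearer to 0 than the median marker. After normexp s1pr1 stood at -0.28, and the marker median of that setting is not given here, so this comparison was not made there. Of 59 listed markers 30 were measured, of which 26 had a negative and 4 a positive log2 fold change, with a median of -0.43. Over all units 51.9% were negative and 48.1% positive, and the median was -0.02. None passed the adjusted threshold, 13 were lower and 0 higher at an unadjusted p under 0.05 (3.3% of all units were lower and 4.16% higher), and in 12 the sorafenib arrays lay under every control array (1.91% of all units). The list was chosen with earlier results of these data known, so these counts are a description and are not read against those shares. The mean level of the 30 markers was -0.43 to -0.32 over sorafenib arrays and -0.10 to 0.17 over control arrays, with no overlap. This difference was -0.47 on slide 1 and -0.44 on slide 2, and without sorafenib replicates 2 and 3 the mean was -0.44. In a whole heart sample, fewer endothelial cells, a changed share of other tissues and less of a transcript per cell cannot be told apart.

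Among the endothelial markers, those with the smallest unadjusted p were esm1, a proteoglycan gene of sprouting endothelium, thsd1, a thrombospondin-domain membrane protein gene, and cldn5b, which encodes a tight junction claudin. The esm1 level was -2.17, -2.10, -2.88 and -1.73 in sorafenib replicates 1 to 4, against 0.16, -0.90, 0.37 and 0.09 in control replicates 1 to 4. Its log2 fold change was -2.15 ± 0.33 (SE, limma adjusted p = 0.245), or -1.10 after normexp. That of cldn5b was -0.95 ± 0.20 (limma adjusted p = 0.372), or -0.86 after normexp, and that of thsd1 was -0.86 ± 0.17 (limma adjusted p = 0.329), or -0.39 after normexp. In the opposite direction stood cav1, the caveolin gene of endothelial membrane pits, at +0.41, ephb4b, a venous ephrin receptor gene, at +0.19, and podxl, a sialomucin gene, at +0.18, with +0.12 for ephb4b and +0.07 for podxl after normexp. The other cav1 probe read +0.07.

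The level of each gene was also expressed relative to the endothelial mean of its own array. For klf2a this was 4.07 to 4.47 in sorafenib hearts and 2.88 to 3.62 in control hearts, with no overlap and a difference of 0.81. Of this, +0.36 is the difference of klf2a itself, whose groups overlap, and the rest lies in the endothelial mean. That mean separates the groups, so subtracting it shifts even an unchanged gene upward in sorafenib hearts. How many of all units separate after the same subtraction was not determined, so nothing is read from this separation. For klf2b it was 3.36 to 3.77 in sorafenib hearts and 3.18 to 3.42 in control hearts, a difference of 0.38 with overlap. For s1pr1 it was 4.36 to 5.09 in sorafenib hearts and 3.94 to 4.91 in control hearts, a difference of 0.24 with overlap. Over the 3 genes together the difference was +0.48, with +0.51 on slide 1, +0.44 on slide 2 and +0.58 without sorafenib replicates 2 and 3. It was +0.28 in the authors' series table, +0.25 after normexp and -0.41 with normexp before outlying backgrounds were replaced. Nearly all of the +0.48 on the processed signal lies in the endothelial mean, which differed by -0.45 there, whereas the mean of the 3 genes differed by +0.02. For klf2b and s1pr1, whose own differences were negative, the positive relative value comes from the endothelial mean. On the processed signal markers of both brightness ranges lay on the negative side. Of the 15 brighter ones 13 were negative, with a median of -0.42, and of the 15 dimmer ones 13 were negative, with a median of -0.59. The same medians after normexp are not given here. All 30 had probes dimmer on average than the brighter klf2b probe, which compares probe signals and not amounts of transcript.

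**Figure D2:**
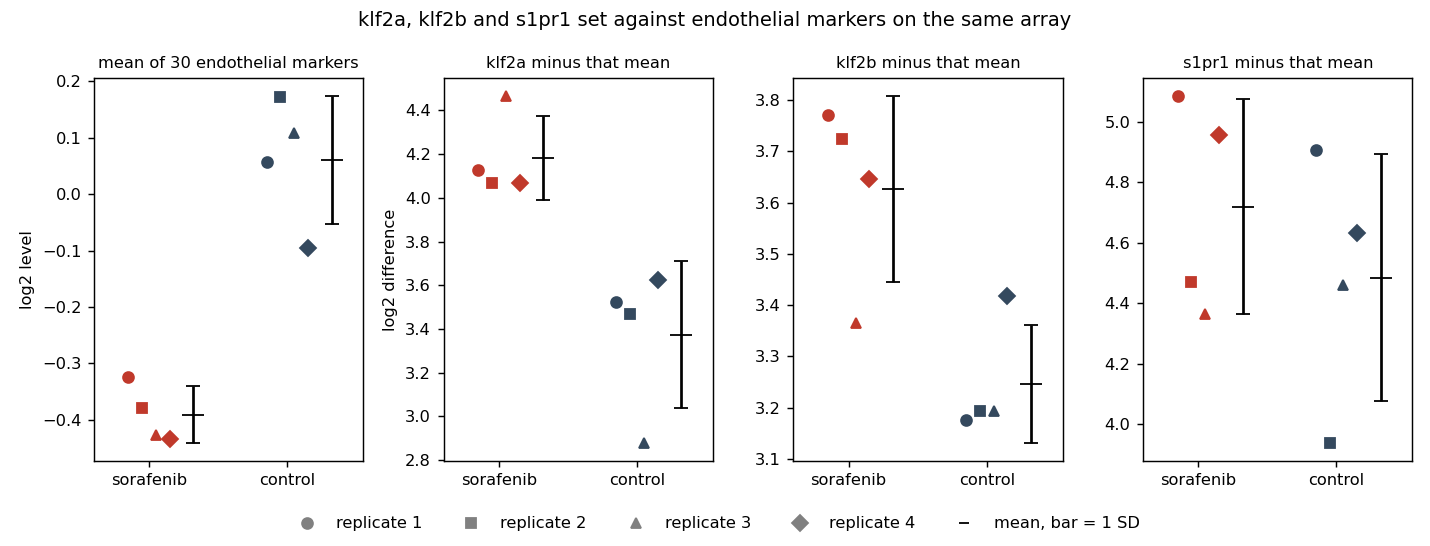
Mean log2 level of 30 endothelial markers on each array (first panel) and the log2 level of klf2a, klf2b and s1pr1 minus that mean, sorafenib left and control right, with the group mean and 1 SD. The marker mean separates the groups, at -0.43 to -0.32 in sorafenib hearts and -0.10 to 0.17 in control hearts. The value of klf2a minus that mean separates them in the opposite direction, in part because the mean is subtracted, while klf2a alone overlaps.

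Markers of other tissues moved with some of these values. Of 29 listed neural markers 24 were measured and all 24 had negative log2 fold changes, with a median of -0.50, and of 34 listed liver and plasma protein genes 21 were measured, of which 20 were positive, with a median of +0.74. The mean liver level, relative to all arrays, was -0.39 to 1.03 in sorafenib hearts and -0.82 to 0.41 in control hearts. Without sorafenib replicates 2 and 3 the neural median was -0.04 and the liver median +0.24. Among 17 measured heart muscle genes 16 were positive, with a median of +0.45, or +0.05 without those arrays. White blood cell genes had a median of +0.11 over 8 genes, or +0.03 without those arrays. Epidermal genes had a median of +0.16 over 15 genes, which turned to -0.05 without those arrays, with 10 of 15 negative. Epicardial and mural genes had a median of +0.31 over 9 genes, or +0.22 without those arrays. Red cell and thrombocyte genes had a median of +0.34 over 11 genes, or +0.35 without those arrays, and +0.03 without control replicate 2, whose score for these genes was -1.11 where the other controls stood at 0.01 to 0.11.

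Each of the 3 genes was set against the 8 marker scores over the 8 arrays, 24 relations in all, and none passed after Benjamini-Hochberg adjustment. The permutations treat all 8 arrays as exchangeable, although they come from 2 treatments and 2 slides. The genes were also chosen on the contrast between the treatments, so the p-values describe the arrays and nothing is read from them. Each r is also given without the 2 arrays farthest from the median of the marker score, so the pair left out differs between scores. The p-values over those 6 arrays carry no adjustment. By Pearson's r the closest was s1pr1 with the neural score, with r = 0.81 (exact permutation p = 0.00933, adjusted p = 0.121) and Spearman's rho = 0.76 (exact permutation p = 0.0368, adjusted p = 0.176). Pearson's r was 0.60 (exact permutation p = 0.215, n = 6) without sorafenib replicates 2 and 3. Leaving out the arrays farthest in a score narrows its range and can lower r by itself, so nothing is read from the drop. Over all 8 arrays r was 0.83 after centring each slide and 0.81 after centring each group. The relation of s1pr1 to the heart muscle score ran the other way, with Pearson's r = -0.79 (exact permutation p = 0.0195, adjusted p = 0.156) and Spearman's rho = -0.71 (exact permutation p = 0.0576, adjusted p = 0.208). Pearson's r was -0.45 without sorafenib replicates 2 and 3 (exact permutation p = 0.360, n = 6). It was -0.84 after centring each slide and -0.78 after centring each group. By Spearman's rho the closest was klf2a with the neural score, with rho = -0.86 (exact permutation p = 0.0107, adjusted p = 0.168), while Pearson's r was -0.61 (exact permutation p = 0.126, adjusted p = 0.413). Without sorafenib replicates 2 and 3 this r was -0.43 (exact permutation p = 0.353, n = 6). It was -0.61 after centring each slide and only -0.39 after centring each group. For klf2a and the liver score, Pearson's r was 0.78 (exact permutation p = 0.0101, adjusted p = 0.121) and Spearman's rho 0.81 (exact permutation p = 0.0218, adjusted p = 0.168). Without control replicate 3 and sorafenib replicate 3 Pearson's r was 0.55 (exact permutation p = 0.268, n = 6). It was 0.77 after centring each slide and 0.65 after centring each group. For klf2a and the epidermal score, Spearman's rho was 0.81 (exact permutation p = 0.0218, adjusted p = 0.168) and Pearson's r 0.55 (exact permutation p = 0.157, adjusted p = 0.413). Without control replicate 4 and sorafenib replicate 4 this r was 0.89 (exact permutation p = 0.00556, n = 6). It was 0.51 after centring each slide and 0.43 after centring each group. For klf2a, Spearman's rho with the heart muscle score was 0.79, and Pearson's r with the epicardial and mural score was 0.69. With the endothelial score Pearson's r was -0.64 for klf2a, 0.34 for the brighter klf2b probe and 0.28 for s1pr1. After centring each group these 3 values were -0.12, 0.37 and -0.08. The part of neural, liver, epidermal, epicardial or heart muscle tissue in the values of s1pr1 and klf2a was not tested.

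**Figure D3:**
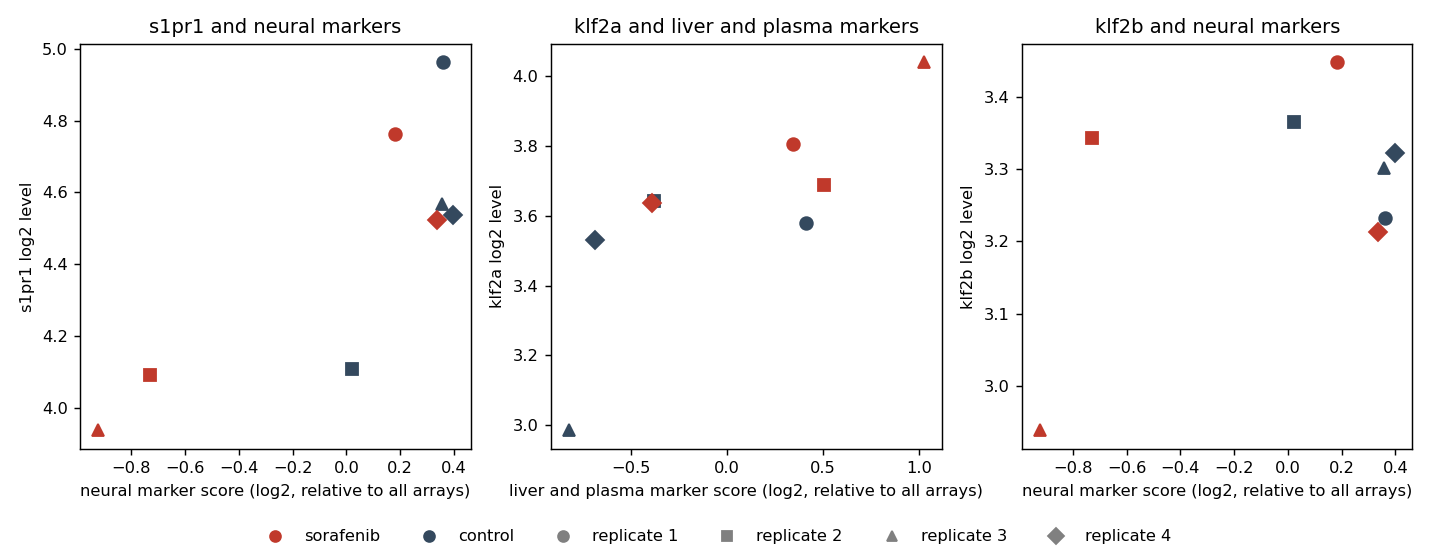
Log2 level of s1pr1, klf2a and klf2b on each array against the mean level of neural or liver and plasma markers relative to all arrays (log2), with sorafenib in red, control in dark blue and a marker shape per replicate. Sorafenib replicates 2 and 3 lie far to the left on both neural axes, at -0.73 and -0.92.

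Other Krüppel-like factors showed no common direction. Of 24 listed, 14 had a named probe and 13 were measured, of which 6 were positive and 7 negative, with a median of -0.02, or -0.03 without sorafenib replicates 2 and 3. None passed the adjusted threshold, and 0 had an unadjusted p under 0.05, where 7.46% of all units did. The level of klf6a, another zinc finger factor gene of the family, was 4.14, 4.07, 4.42 and 3.26 in sorafenib replicates 1 to 4, against 3.51, 3.95, 3.57 and 3.39 in control replicates 1 to 4. The groups overlapped through sorafenib replicate 4, and the log2 fold change was +0.36 ± 0.26 (SE). The highest was klf5l, at +0.40 ± 0.19, and its sorafenib arrays all lay above its control arrays. The red cell factors klf17 and klf1 stood at +0.21 and -0.30, or +0.11 and +0.03 after normexp, and the probes of klf1 ranged from -0.85 to -0.30. At the lower end were klf11a at -0.32 and klf7b at -0.23. No value is given for klf4 and klf9, which had no probe matched by name.

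The genes around the S1P receptor showed no common direction. Of 28 listed, 11 had a named probe and 9 were measured, of which 6 were positive and 3 negative, with a median of +0.06 that turned to -0.04 without sorafenib replicates 2 and 3. None passed the adjusted threshold or had an unadjusted p under 0.05. The receptor gene s1pr3a stood at 0.00 ± 0.16 (SE), and sgpl1, which encodes the lyase that breaks S1P down, at +0.26 ± 0.29. Of the G protein subunits through which S1P receptors signal, gnai2a was at +0.21, with its probes from -0.09 to +0.21, gna13b at +0.10 and gnai2b at -0.47 ± 0.22 (SE), the largest difference of the list in size. The small GTPase gene rac1b stood at -0.19 and the lipid phosphatase gene plpp2a at -0.05, or -0.07 and +0.05 after normexp. The S1P exporter gene spns2 had only a dim probe, and s1pr2 and the kinase gene sphk1 had no probe matched by name.

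Upstream of klf2, genes of flow sensing were mixed. Of 31 listed 15 were measured, 7 positive and 8 negative, with a median of -0.09 that turned to +0.06 without sorafenib replicates 2 and 3, and none passed the adjusted threshold. The purinergic receptor gene p2rx4a, whose channel opens to ATP released by sheared endothelium in mammals, was the only one of the 15 with an unadjusted p under 0.05, where 7.46% of all units had one. Its level was -0.99, -0.89, -0.70 and -1.43 in sorafenib replicates 1 to 4, against -1.41, -1.89, -1.67 and -1.65 in control replicates 1 to 4. The groups overlapped by sorafenib replicate 4, and the log2 fold change was +0.65 ± 0.20 (SE, limma adjusted p = 0.559), or +0.31 after normexp. In the kinase chain that leads to klf2 in mammals, mapk7, which encodes ERK5, was at +0.29, or +0.16 after normexp, with its probes from -0.01 to +0.29. Its target factor mef2aa was at +0.31, or +0.15 after normexp, and mef2ca at -0.55, with mef2ca probes from -0.55 to -0.18. The genes heg1 and ccm2, which encode parts of the CCM complex that holds klf2 down, were at -0.99 and -0.41. Both are dim, heg1 being above background on 1 sorafenib and 3 control arrays, and after normexp they stood at -0.04 and +0.009. The channel gene pkd2 had only a dim probe, and piezo1 and krit1 had no probe matched by name.

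Among genes known to respond to flow or to Klf2 in zebrafish or mammals, single genes differed in both directions. Of 45 listed 28 were measured, 13 positive and 15 negative, with a median of -0.01 that turned to +0.04 without sorafenib replicates 2 and 3. None passed the adjusted threshold, and 3 were higher and 2 lower at an unadjusted p under 0.05, where 4.16% of all units were higher and 3.3% lower. The endothelin gene edn1, whose transcript steady flow and KLF2 lower in mammalian endothelium, was 1.93, 1.83, 2.12 and 1.16 in sorafenib replicates 1 to 4. In control replicates 1 to 4 it was 0.55, 0.92, 0.44 and 0.34. Every sorafenib array lay above every control array, and the log2 fold change was +1.20 ± 0.24 (SE, limma adjusted p = 0.311). The connexin gene gja4 was -4.22, -5.38, -5.03 and -4.40 in sorafenib replicates 1 to 4, against -3.39, -3.54, -3.58 and -3.36 in control replicates 1 to 4. Its log2 fold change was -1.29 ± 0.26 (SE, limma adjusted p = 0.326), but it was above background on only 1 sorafenib array, and after normexp it stood at -0.09.

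In the same group, tek, the angiopoietin receptor gene, stood at -0.71 ± 0.16 (SE, limma adjusted p = 0.403), and the apelin receptor gene aplnrb at -0.36. The nitric oxide synthase gene nos1 was at +0.83, with its probes from +0.36 to +0.83, and it was +0.14 after normexp. The hyaluronan synthase gene has2 was at +0.56, or +0.08 after normexp. The flow-responsive genes notch1b and nrg1 stood at -0.09 and +0.12, or +0.05 and +0.02 after normexp. The immediate early gene egr1 was at +0.68 ± 0.52 (SE), or +0.12 after normexp, above background on 2 sorafenib and 2 control arrays.

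Among genes of endocardium and valve formation, in which zebrafish klf2a takes part, 20 of 32 listed were measured, 13 positive and 7 negative, with a median of +0.10, or +0.08 without sorafenib replicates 2 and 3. None passed the adjusted threshold, and 2, has2 and tbx2a, were higher at an unadjusted p under 0.05, where 4.16% of all units were. The T-box gene tbx2a, which marks the atrioventricular canal, was at +0.52 ± 0.22 (SE), or +0.18 after normexp. The fibronectin gene fn1b was at +0.67 ± 0.31, with its probes from +0.31 to +0.67. On the lower side, tgfb1a was at -0.37, or -0.07 after normexp, vcanb, a matrix proteoglycan gene of the valve region, at -0.13 and hapln1a, a hyaluronan link protein gene, at -0.12, or 0.00 after normexp. The valve regulator gene nfatc1 had only a dim probe.

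**Figure D4:**
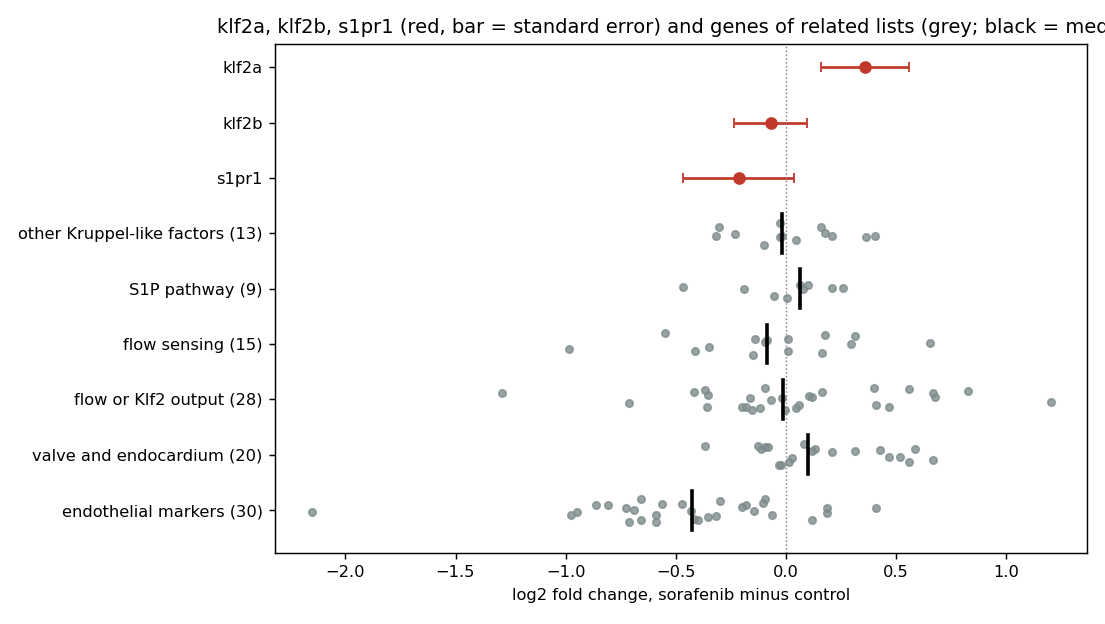
Log2 fold change, sorafenib minus control, of klf2a, klf2b and s1pr1 (red points with standard errors) and of the measured genes of 6 lists (grey points, black line the median, number of genes in brackets). The list medians lie between -0.09 and 0.10 except for the endothelial markers, at -0.43.

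Genes whose levels followed each member most closely were taken by Pearson's r over the 8 arrays, among 8247 named genes above background on all arrays. These are the highest of 8247 values over 8 arrays that share slides and treatment, and they carry no test. For klf2a they were lrrc40 (r = 0.96), fbxo43 (0.95), xrcc6 (0.95), tacc3 (0.94) and cyp2p9 (0.94). Of these, xrcc6 encodes a subunit of the Ku complex of DNA repair and tacc3 a protein of the mitotic spindle. For the brighter klf2b probe they were carhsp1 (0.92), irak1bp1 (0.91), nampt2 (0.89), tefb (0.89) and prok1 (0.89). For s1pr1 they were stmn4, a neural stathmin gene (0.99), slc2a3a, a glucose transporter gene (0.98), tmem9 (0.98), atp1b3b, which encodes a sodium pump subunit (0.97), and zgc:92275 (0.97). The lists for the 3 genes share no gene. Centred within each group, stmn4 kept r = 0.99 with s1pr1 and lrrc40 r = 0.97 with klf2a.

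In the RefSeq annotation of assembly GRCz12tu, klf2a and s1pr1 lie on chromosome 22 with 5 protein-coding genes between them, and klf2b lies on chromosome 2. Of the genes in between, 3 were measured. The coagulation inhibitor gene serpinc1, which is made in the liver, was at +0.80 ± 0.40, zbtb37 at +0.40 ± 0.18 and the centriole gene stil at -0.23 ± 0.30 (SE). After normexp zbtb37 stood at +0.15 and stil at -0.01. None of the 3 passed the adjusted threshold, and eps15l1a and rc3h1a were not measured.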

How the data were processed

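Each deposited scanner file holds the linear intensity of 45220 spots as a processed signal, background-subtracted by Agilent Feature Extraction, version 10.1.1.1 per the file headers and 8.0 per the submitters' processing notes. The authors' series table holds log2 values of 21383 probes, each column matching its own array best, with centring and filter not given in the sources used here. Its direction follows from that match, its column medians were 7.20 to 7.22, and it served as an alternative.

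Control and outlier spots were left out, spots of a probe averaged, and the 75th percentile of each array subtracted on the log2 scale. Probes entered when well above background on at least 4 of 8 arrays. Of 43603 probes, 15163 (34.8%) were named through RefSeq accessions (10536 genes), and the brightest probe stood for a gene. The build in the file headers, danRer5, differs from that of the RefSeq table, so no coordinates are given. The groups were compared with limma 3.58.1 in R 4.3.3 (lmFit, eBayes, no covariates). On data simulated with 21519 genes it recovered 22% of 50 genes changed 2-fold and 88% of 50 changed 4-fold, with 9 false calls in all. The same simulated data held 50 genes changed 8-fold and 50 changed 16-fold, with independent noise and no slides. The adjusted threshold depends on how many genes change, so these shares do not carry over to the measured data, where 0 units were called.

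The members and the gene lists were chosen with earlier results of these data known. From each list, the 3 positive and 3 negative genes with the smallest unadjusted p were named, besides fixed genes and the 5 closest in pattern to each member. With 4 arrays a group, the precision of each difference is limited by that number.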

Additional observations from a re-analysis of the deposited data

Results flagged for a closer look

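In 12 groups of 4 arrays examined for a single array apart from the rest, 2 were found, where chance gives about 1 in 20 independent groups. The groups examined are not independent, since klf2a is part of the klf2a minus klf2b value, so the count is not read against that share. The klf2a level of control replicate 3, at 2.98 (2.985 before rounding), lay well under the other controls, but only just met the rule. With the brighter klf2b probe, the klf2a level minus the klf2b level of sorafenib replicate 3, at 1.102, lay well above the other sorafenib arrays. On the other klf2b probe sorafenib replicate 3 read 3.57, the highest of its group, so this flag is read for the brighter probe only. Both arrays lie on slide 2. The other klf2b probe, on which control replicate 4 read 1.94 and the other controls 2.91 to 3.05, was not among the 12 groups examined. That it carries no flag is therefore not a result.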

How the results depend on the processing

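Over 12 alternatives besides the planned normexp correction, and apart from the values within a slide, the log2 fold change was 0.29 to 0.43 for klf2a, -0.13 to 0.02 for klf2b, -0.31 to 0.10 for s1pr1, 0.26 to 0.49 for klf2a minus klf2b and 0.25 to 0.58 for the members minus endothelial markers. The upper ends of klf2b and s1pr1, where the direction turns, came from leaving out sorafenib replicates 2 and 3, an alternative chosen after seeing the data. Leaving out single arrays gave 0.21 to 0.43 for klf2a, -0.14 to 0.03 for klf2b, -0.36 to -0.08 for s1pr1, 0.25 to 0.50 for klf2a minus klf2b and 0.41 to 0.54 for the members minus endothelial markers. It gave 0 to 1 transcripts higher, the 1 without control replicate 3, and 0 lower.

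With normexp background correction as planned, klf2a was -0.32, klf2b -0.68, s1pr1 -0.93 and the members minus endothelial markers -0.41. In sorafenib replicate 4, 7 spots had a local background over 50, up to 164405, and all were marked as outlying by Feature Extraction. In sorafenib replicate 1, 21 spots had one over 50, up to 696. In a setting added after seeing the data, all local backgrounds marked as outlying were replaced, on every array. With it klf2a was 0.35, klf2b -0.07, s1pr1 -0.28 and the members minus endothelial markers 0.25, and 1 transcript was called higher. The "after normexp" values of other genes come from this setting.

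Against 0 transcripts called in either direction, 1 was called higher with the array median as the scale, 2 with quantile normalization, 3 higher and 4 lower in the authors' series table, and 26 higher and 22 lower with array weights. With array weights, 2 genes of the flow output list (edn1 and gja4) and 1 endothelial marker (esm1) passed, each at a limma adjusted p of 0.0446. In the series table the members minus endothelial markers were 0.28. Within slide 1, with the brighter klf2b probe, klf2b was 0.10 and klf2a minus klf2b 0.040. Within slide 2 they were -0.24 and 0.82. The cause of these shifts was not tested. Same-numbered arrays deviated from their group means with correlations of 0.27, 0.42, 0.04 and 0.70 for replicates 1 to 4. Each control array matched the sorafenib array of its own number best, as did 3 of 4 sorafenib arrays with the controls, sorafenib replicate 3 matching control replicate 1. The labels name no shared batch behind the numbers and 1 correlation is close to 0, so they were not taken as pairs. With the replicate number as a block, the fit called 0 transcripts and gave the same estimates, with standard errors of 0.21 for klf2a, 0.15 for klf2b and 0.16 for s1pr1.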
